A study of Mus musculus with 20 samples.

Results

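Redox defence was followed as 36 genes chosen by symbol, from NRF2 regulators to NADPH producers, all of which were found among the 47729 genes of the deposited mouse adrenal table. RNA was sequenced from whole adrenal glands in 20 libraries. Control libraries carry the genotype label SCC::Cre_CTRL and come from 5 females aged 1.5 to 3.4 months and 6 males aged 2.9 to 4.7 months. Knockout libraries carry the label SCC::Cre_BMAL1 KO, written Bmal1 KO here, and come from 5 females aged 2.4 to 3.4 months and 4 males aged 2.9 to 3.7 months. Both genotypes thus share the SCC::Cre driver. SCC stands for the side-chain cleavage enzyme, product of Cyp11a1, so recombination is directed to steroid-producing cells, and the medulla, vessels and blood cells of the gland would keep Bmal1. The study asked how loss of BMAL1, a transcription factor of the circadian clock, changes adrenal expression in each sex. The sources used here do not give the time of collection, the deleted exons or the breeding. Nothing in the labels says that libraries of equal age came from separate animals, so the p-values measure the spread of these samples alone, and part of it may be technical.

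Cells dispose of superoxide and peroxides in steps. Superoxide dismutases make hydrogen peroxide, which catalase, the glutathione peroxidases and the peroxiredoxins remove. The peroxidases draw their electrons from glutathione or thioredoxin, and the reductases that regenerate those carriers spend NADPH made by the pentose phosphate pathway, malic enzyme and the isocitrate dehydrogenases. NRF2, the product of Nfe2l2, switches on many of these genes when its inhibitor KEAP1 lets it go. In the adrenal cortex the same NADPH feeds the mitochondrial and microsomal P450 enzymes that make steroids, which leak electrons as they work.

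Library depth ran from 13421985 to 26742820 recovered reads, and mitochondrial transcripts took 7.94% to 12.4% of reads. The first principal component over all genes tested, with 26.35% of the variance, separated females from males. The second, with 6.28%, separated the genotypes within each sex, although control female 1 lay at 10.4, next to the Bmal1 KO females at 12.4 and above. All 10 adrenal cortex markers and all 8 chromaffin cell markers were detected in every library, while summed kidney markers stayed between 8.24 and 26.3 normalised reads. The targeted transcript Arntl, which encodes BMAL1, was not lower under the KO label: its median was 550.1 normalised reads in control females, 885 in Bmal1 KO females, 637.9 in control males and 929 in Bmal1 KO males. The log2 difference was 0.57 ± 0.19 (SE, adjusted p = 0.164, limma) in females and 0.55 ± 0.19 (adjusted p = 0.241) in males. A gene count outside the deleted part does not check the deletion, so every direction below rests on the labels.

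All 36 members passed the filter on low values in the table as a whole (at least 1 normalised read in at least 4 libraries). Levels are given as normalised read counts, and comparisons between genes as normalised reads per kb of annotated exon. By the per-kb level averaged over the 20 libraries, Prdx3, the mitochondrial peroxiredoxin, stood highest at 11598, followed by Me1, cytosolic malic enzyme, at 10991. Prdx1, a cytosolic peroxiredoxin, stood at 5432 and Gpx4, the peroxidase that reduces lipid hydroperoxides, at 5404. At the other end were Slc7a11, the cystine importer, at 3.89 per kb, and Nqo1, a quinone reductase, at 72.1 per kb. Slc7a11 was low in every group, with a lowest library of 32 and a highest of 70 normalised reads among control females.

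**Figure D1:**
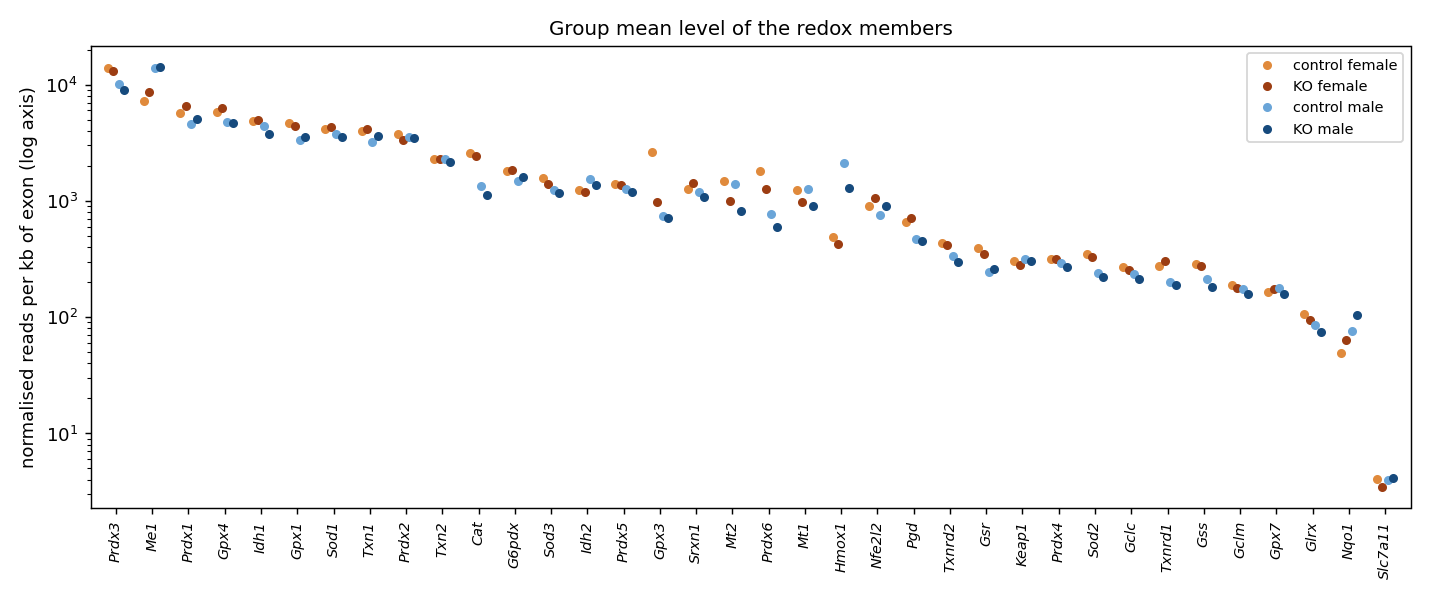
Group mean level of each of the 36 members in normalised reads per kb of exon (y, log axis), ordered by the mean over the groups (x). Prdx3 and Me1 lead, with means over the 20 libraries of 11598 and 10991, and Slc7a11 is lowest at 3.89. The group means of Hmox1, Prdx6, Cat and Me1 show wide gaps between the sexes in both genotypes, and those of Gpx3 in controls.

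Few members differed between Bmal1 KO and control past the threshold. Prdx6 was lower in Bmal1 KO adrenals of both sexes, and Hmox1 was lower in Bmal1 KO males. No member rose past the threshold, an adjusted p under 0.05 in limma with Benjamini-Hochberg adjustment over 26612 genes. In females 1 of 36 members passed, against 1.75% of all genes tested. In males 2 of 36 passed, against 1.33% of all genes tested. Among the 13491 genes with a mean level at or above that of the lowest member, 2.92% passed in females and 2.32% in males. The median log2 difference of the members was -0.07 in females and -0.09 in males, and 31 of 36 lay within 0.3 of zero in each sex. At an unadjusted p under 0.05 there were 6 members in females and 7 in males, against 3110 and 2899 of the 26612 genes tested. Of the 13491 genes at or above the lowest member's mean level, 2142 in females and 2085 in males had such a p. The groups stood fully apart for 3 of 36 members in females and 2 in males, beside 3.25% and 3.07% of all genes tested.

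**Figure D2:**
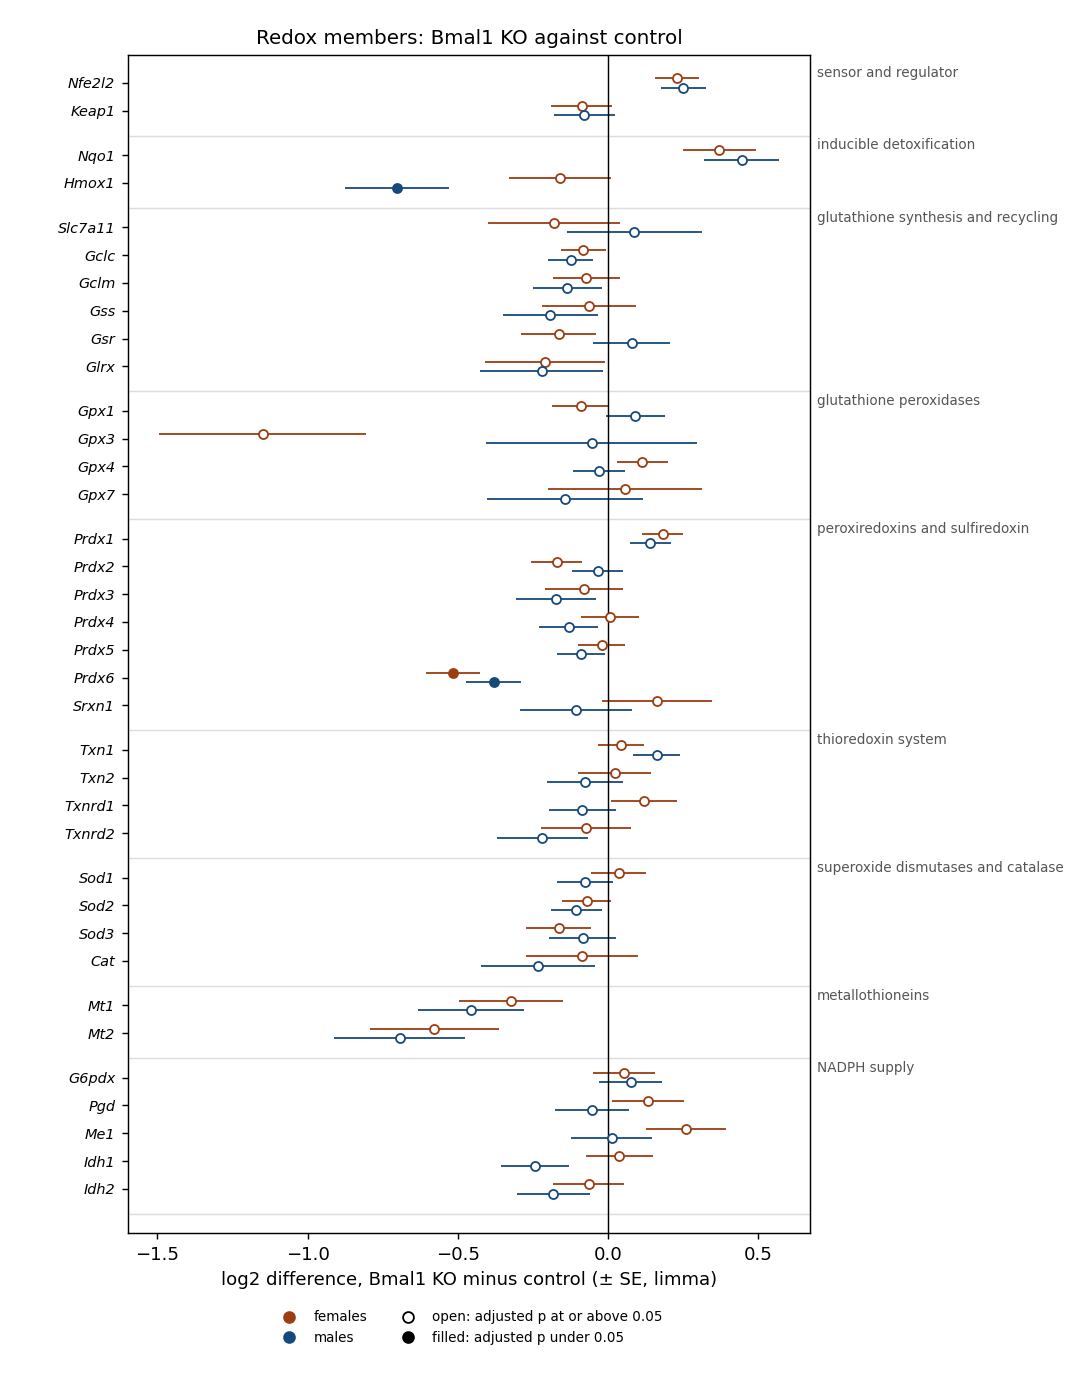
Log2 difference of Bmal1 KO minus control (x, ± SE from limma) for each member (y, grouped by role), in females and in males; filled points have an adjusted p under 0.05. Filled points are Prdx6 in both sexes (-0.52 and -0.38) and Hmox1 in males (-0.70); Gpx3 in females (-1.15) is farthest from zero but has a wide error.

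Prdx6 encodes a peroxiredoxin with a single catalytic cysteine that uses glutathione and also has phospholipase activity. The gene lies on chromosome 1 at 161240112-161251219 on the minus strand (GRCm38). Control females read 7147, 9809, 8833, 8714 and 9265 normalised reads, and Bmal1 KO females 6019, 6196, 5657, 7296 and 5411. The Bmal1 KO females were lower as a group, with 1 of them, at 7296, above the lowest control at 7147. The log2 difference was -0.52 ± 0.09 (SE, adjusted p = 0.00254), which is 0.699 times the control level. In control males the lowest, median and highest libraries read 3348, 3747 and 4171, and Bmal1 KO males read 3068, 2772, 2755 and 2863. Here the groups did not overlap. The log2 difference in males was -0.38 ± 0.09 (adjusted p = 0.0405), or 0.768 times control. The female call held without any 1 library (adjusted p 0.000467 to 0.0107). The male call held only when control male 1 or control male 5 was the library left out, and adjusted p ran from 0.0367 to 0.125. It also ended without a filter (adjusted p = 0.0527), with the 2 male groups fitted alone (0.0568), with the replicate number as a block (0.131) and among ages 2.4 to 3.7 months (0.136). The test between the sexes did not separate the effects: the difference of the log2 effects was -0.14 with adjusted p = 0.950. Its near copies Prdx6b and Prdx6-ps2 averaged 0.641 and 0.0453 normalised reads, so reads counted to them were few. Whether fewer cells that express a gene or less RNA per cell underlies a lower value cannot be told apart in whole glands, here or in any result below.

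Hmox1 encodes heme oxygenase, which breaks heme down to biliverdin, carbon monoxide and iron and is a classical NRF2 target. It lies on chromosome 8 at 75093621-75100589, plus strand. In control males its lowest, median and highest libraries read 2970, 3389 and 4864. Bmal1 KO males read 2785, 1959, 2217 and 2068, all below the lowest control male. The log2 difference was -0.70 ± 0.17 (adjusted p = 0.0469), or 0.614 times control. Control females read 628, 647, 817, 863 and 1310 and Bmal1 KO females 712, 632, 858, 827 and 679. The female groups overlapped, with a log2 difference of -0.16 ± 0.17 (adjusted p = 0.812). The male call rested on narrow margins. It held when control male 5, control male 6 or Bmal1 KO male 1 was left out, and was lost without any other single male library (adjusted p 0.0386 to 0.154). It also ended with a pseudocount of 0.1 (adjusted p = 0.0502), without a filter (0.0606), with the 2 male groups fitted alone (0.0628), with the replicate block (0.0667) and with age as a covariate (0.0585). Hmox1 is expressed by macrophages that clear red cells. Summed macrophage markers were 5399 to 7742 in control males and 4558 to 8535 in Bmal1 KO males. Singly, 5 of the 8 macrophage markers had positive and 3 negative log2 differences in males, from -0.53 to 0.16. Of these 8, 0 passed the threshold, and their part in the Hmox1 result was not tested. In the same Bmal1 KO males 2 of 10 adrenal cortex markers passed the threshold, both lower: Star, the cholesterol carrier of mitochondria (log2 difference -0.69 ± 0.15, adjusted p = 0.0238), and Cyp11a1 (-0.71 ± 0.16, adjusted p = 0.0321). Of the 10 markers 4 had positive and 6 negative differences, with a median of -0.0049 and a maximum of 0.26.

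Of the 36 members, 0 passed the test of a difference between the female and the male Bmal1 effect in limma, against 0.0301% of all genes tested. edgeR and DESeq2 on the recovered reads also gave 0. In limma 2 members had an unadjusted p under 0.05, against 1715 of the 26612 genes tested. The 2 members were Hmox1 and Gpx3. The log2 effect of Hmox1 was 0.54 ± 0.24 higher in females than in males (adjusted p = 0.742). For Gpx3 the difference of effects was -1.10 ± 0.49 (adjusted p = 0.751). The call of Hmox1 in males alone is therefore not shown to be a difference between the sexes.

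The remaining members among the 6 smallest p-values of a genotype contrast passed in neither sex. They were Gpx3, Nfe2l2, Nqo1, Prdx1 and Mt2 in females and Nqo1, Nfe2l2, Mt2 and Mt1 in males. The regulator Nfe2l2, its target Nqo1 and the metallothioneins Mt1 and Mt2 are taken first, and Gpx3 and Prdx1 follow. Metallothioneins are small cysteine-rich proteins that bind zinc and copper and quench radicals, and glucocorticoids and metals induce them. To show what the annotated starts of these genes carry, the 250 bases before the RefSeq start (GRCm38.p6) are printed for Nfe2l2, Nqo1, Mt1 and Mt2, read in the direction of transcription. Capitals mark a match, on either strand, to the core of the antioxidant response element that NRF2 binds (TGACNNNGC) or of the metal response element (TGCNCNC).
Nfe2l2, chr2:75704664-75704913, minus strand: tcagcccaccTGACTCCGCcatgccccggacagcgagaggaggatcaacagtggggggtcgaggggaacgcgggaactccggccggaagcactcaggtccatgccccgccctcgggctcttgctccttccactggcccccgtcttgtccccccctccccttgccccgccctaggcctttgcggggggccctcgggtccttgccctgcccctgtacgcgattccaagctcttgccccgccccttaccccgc
Nqo1, chr8:107403206-107403455, minus strand: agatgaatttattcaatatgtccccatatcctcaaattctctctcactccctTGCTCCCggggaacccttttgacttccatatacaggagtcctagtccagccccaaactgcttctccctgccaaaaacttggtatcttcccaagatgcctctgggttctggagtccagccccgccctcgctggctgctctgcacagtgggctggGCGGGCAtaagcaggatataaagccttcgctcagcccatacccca
Mt1, chr8:94178839-94179088, plus strand: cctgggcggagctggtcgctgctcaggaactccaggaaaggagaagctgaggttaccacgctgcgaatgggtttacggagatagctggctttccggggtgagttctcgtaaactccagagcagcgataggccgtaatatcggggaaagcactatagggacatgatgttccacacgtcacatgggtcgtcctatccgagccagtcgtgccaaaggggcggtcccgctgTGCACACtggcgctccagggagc
Mt2, chr8:94172368-94172617, plus strand: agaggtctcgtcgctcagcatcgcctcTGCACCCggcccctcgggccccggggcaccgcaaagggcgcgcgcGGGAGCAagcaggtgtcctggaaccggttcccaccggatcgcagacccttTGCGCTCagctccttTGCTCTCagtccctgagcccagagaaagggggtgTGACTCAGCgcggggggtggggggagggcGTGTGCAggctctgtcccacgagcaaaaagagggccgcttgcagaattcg

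In these windows Nfe2l2 has 1 antioxidant core, whose first base lies 240 bases before the start, and Mt2 has 1, at 79 bases before it. Mt2 holds 5 metal cores, between 223 and 50 bases before the start, Mt1 holds 1, at 23 bases, and Nqo1 holds 2, at 198 and 45 bases. The clock protein BMAL1 binds with its partner at the E-box CACGTG, which none of the 4 windows contains. Of the 31 members with a RefSeq promoter entry, 7 had the antioxidant core (G6pdx, Gclm, Mt2, Nfe2l2, Prdx1, Sod1 and Txnrd1), 16 the metal core and 1 the E-box (Prdx4). No entry was matched for Prdx6, Hmox1, Gsr, Gclc and Sod3, so their promoters were not searched. Some genes have several entries: of 40 member promoters 7 held the antioxidant core, 21 the metal core and 1 the E-box. Among all 32851 promoters of the same length, 10.2% held the antioxidant core, 44.4% the metal core and 6% the E-box. Overlapping matches to different motifs were each counted. An annotated start need not be the start used in the adrenal, and a match to a core describes the letters and not occupancy.

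Nfe2l2 read 3559, 3373, 3206, 3337 and 3585 in control females and 3970, 3990, 4165, 3998 and 3878 in Bmal1 KO females, so every Bmal1 KO female was above every control female. On the log2 scale the difference was 0.23 ± 0.07 (adjusted p = 0.138). Control males had a lowest, median and highest library of 2429, 2974 and 3312, and Bmal1 KO males read 3191, 3347, 3701 and 3453. Only Bmal1 KO male 1, at 3191, fell within the control range. The log2 difference in males was 0.25 ± 0.07 (adjusted p = 0.123). DESeq2 on the recovered reads passed Nfe2l2 in both sexes (adjusted p = 0.0396 and 0.0342), and edgeR in neither (0.112 and 0.0921). Keap1, the inhibitor, gave log2 differences of -0.09 ± 0.10 in females and -0.08 ± 0.10 in males, with overlapping groups.

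Nqo1, a standard readout of NRF2, was a low transcript here. Control females read 84, 75, 73, 81 and 68 normalised reads and Bmal1 KO females 87, 89, 120, 100 and 100. The female groups did not overlap, but the log2 difference of 0.37 ± 0.12 did not pass (adjusted p = 0.160). Control males ran from 101 through a median of 119 to 136, and Bmal1 KO males read 173, 176, 134 and 166. All but Bmal1 KO male 3, at 134, exceeded the highest control male. The fitted log2 difference was 0.45 ± 0.13 (adjusted p = 0.0960), and DESeq2 passed it (adjusted p = 0.00834) while edgeR did not (0.0564).

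Mt2 read 801, 861, 809, 797 and 1111 in control females and 576, 559, 560, 582 and 634 in Bmal1 KO females, 2 ranges that did not meet. This gave a log2 difference of -0.58 ± 0.21 (adjusted p = 0.232). The male controls were far more spread, from 442 through a median of 791 to 1457, and the Bmal1 KO males read 333, 507, 559 and 527. On the log2 scale the difference was -0.69 ± 0.22 (adjusted p = 0.157), and without control male 4, which holds the lowest control value of 442, adjusted p was 0.0324. DESeq2 passed Mt2 in males (adjusted p = 0.0258) and edgeR did not (0.0979), and limma on the 2 female groups alone passed it in females (0.0134). Mt2 also overlaps an antisense gene, Gm45774, and strand is not stated, so reads of the pair cannot be told apart. Mt1, its neighbour on chromosome 8, read 1206, 1367, 1512, 1610 and 1960 in control females and 1049, 1043, 1402, 1333 and 1260 in Bmal1 KO females. The ranges overlapped, with a log2 difference of -0.32 ± 0.17 (adjusted p = 0.504). In males Mt1 ran from 1143 through 1434 to 2488 in controls and read 853, 1141, 1276 and 1231 in Bmal1 KO, for a log2 difference of -0.45 ± 0.18 (adjusted p = 0.307).

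Because Nfe2l2, Nqo1, Prdx1, Mt1 and Mt2 pointed one way in both sexes, the mean of the female and male effects was tested in the same fit, a contrast chosen after those values had been seen. It passed 4 of 36 members, against 3.81% of all genes tested and 6.55% of those at or above the lowest member's mean level. Prdx6 had a mean log2 effect of -0.45 ± 0.06 (adjusted p = 0.000163) and Mt2 of -0.64 ± 0.15 (adjusted p = 0.0194). Nqo1 had a mean effect of 0.41 ± 0.09 (adjusted p = 0.00828) and Nfe2l2 of 0.24 ± 0.05 (adjusted p = 0.00898). Just outside the threshold were Hmox1 at -0.43 ± 0.12 (adjusted p = 0.0516), Prdx1 at 0.16 ± 0.05 (0.0667) and Mt1 at -0.39 ± 0.12 (0.0928). The 4 calls held without any 1 library. With only the libraries aged 2.4 to 3.7 months, Nfe2l2 (adjusted p = 0.0708) and Mt2 (0.0788) no longer passed, while Prdx6 and Nqo1 did. With the replicate number as a block, Nqo1 did not pass (adjusted p = 0.0717).

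**Figure D3:**
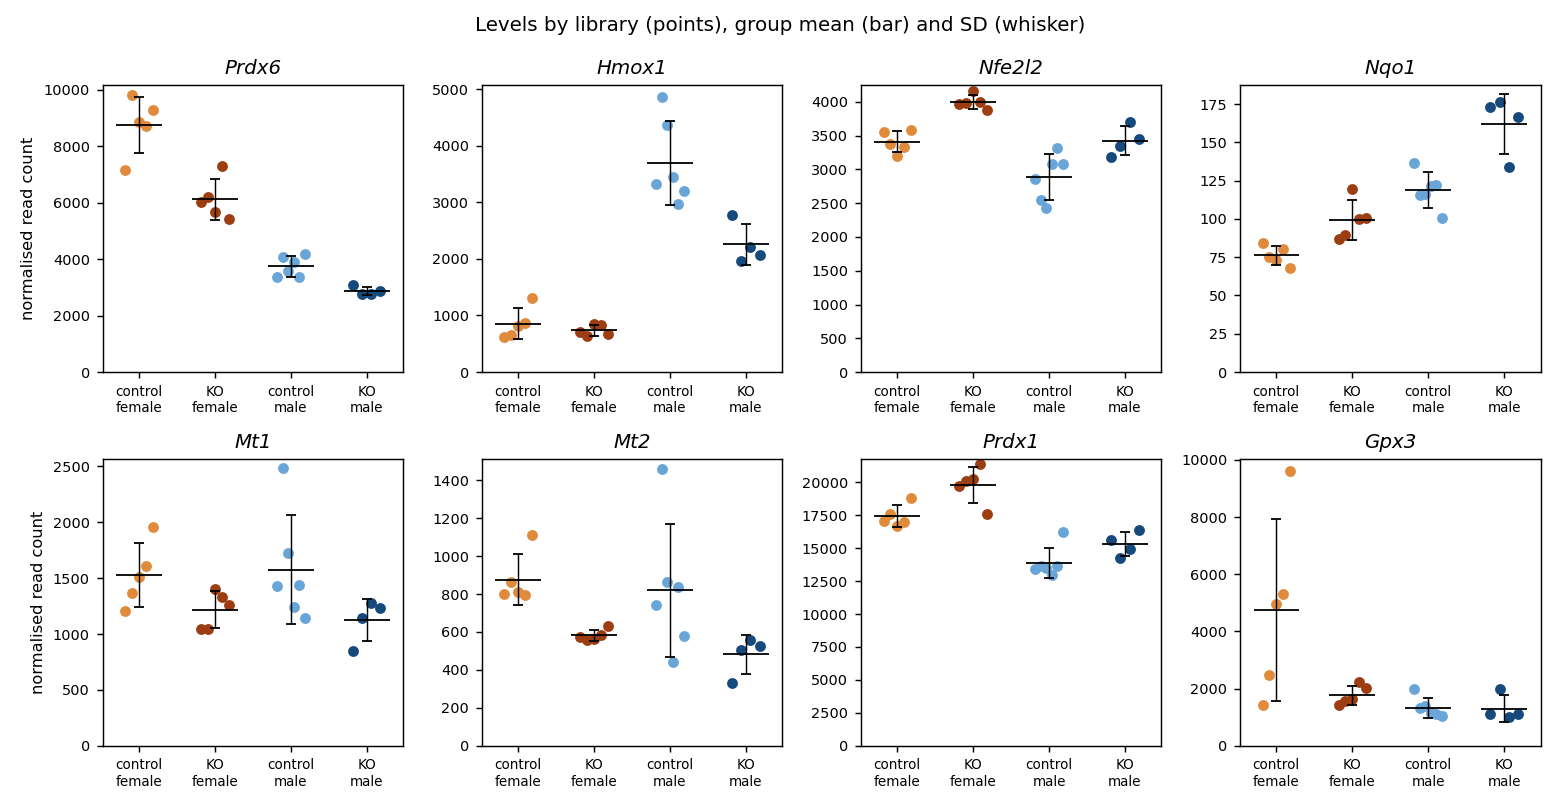
Normalised read count (y, from 0) in each library by group (x) for 8 members; points are libraries, bars the group mean and whiskers the SD. Prdx6 sits lower in Bmal1 KO of both sexes, Hmox1 lower in Bmal1 KO males, Nfe2l2 and Nqo1 higher and Mt2 lower in both, and Gpx3 spreads from 1415 to 9606 within control females.

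The largest genotype difference among the 36 in females, that of Gpx3, did not pass. Gpx3 encodes the secreted glutathione peroxidase of plasma, made mainly by kidney and also by adipose tissue. Control females read 1415, 2460, 4946, 5325 and 9606, at ages of 3.4, 2.7, 2.7, 1.5 and 1.5 months. Bmal1 KO females read 1440, 1558, 1626, 2219 and 2025 at 3.4, 2.7, 2.6, 2.4 and 2.4 months. The control at 3.4 months thus lay at the level of the Bmal1 KO female of the same age. The controls at 2.7 months, at 2460 and 4946, lay above every Bmal1 KO female. The youngest controls have no Bmal1 KO counterpart of their age. The fitted log2 difference was -1.15 ± 0.35 (adjusted p = 0.111). edgeR (adjusted p = 0.0302) and DESeq2 (0.00153) passed it, as did limma without control female 1 (0.00606). Among libraries aged 2.4 to 3.7 months the log2 difference was -0.56 (adjusted p = 0.551). In males Gpx3 ran from 1038 through 1230 to 1986 in controls and read 1102, 1988, 1000 and 1119 in Bmal1 KO, for a log2 difference of -0.05 ± 0.35.

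Adipose markers moved with part of this spread. Their sum over 7 genes was 3500, 3815, 5210, 15408 and 7126 normalised reads in control females 1 to 5, and Adipoq, the adipocyte hormone adiponectin, read 8.32, 3.09, 54.0, 977 and 196. The highest Gpx3 library, control female 5, was not the one with the most adipose signal, control female 4. In Bmal1 KO females the sum ran from 4363 to 9773. Bmal1 KO female 4 had an Adipoq level of 337 with a Gpx3 level of 2219. The kidney markers Umod and Slc34a1 were at 0 in every library, while all 6 kidney markers summed to between 8.24 and 26.3 normalised reads. The part of fat or of age in the Gpx3 difference was not tested further.

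**Figure D4:**
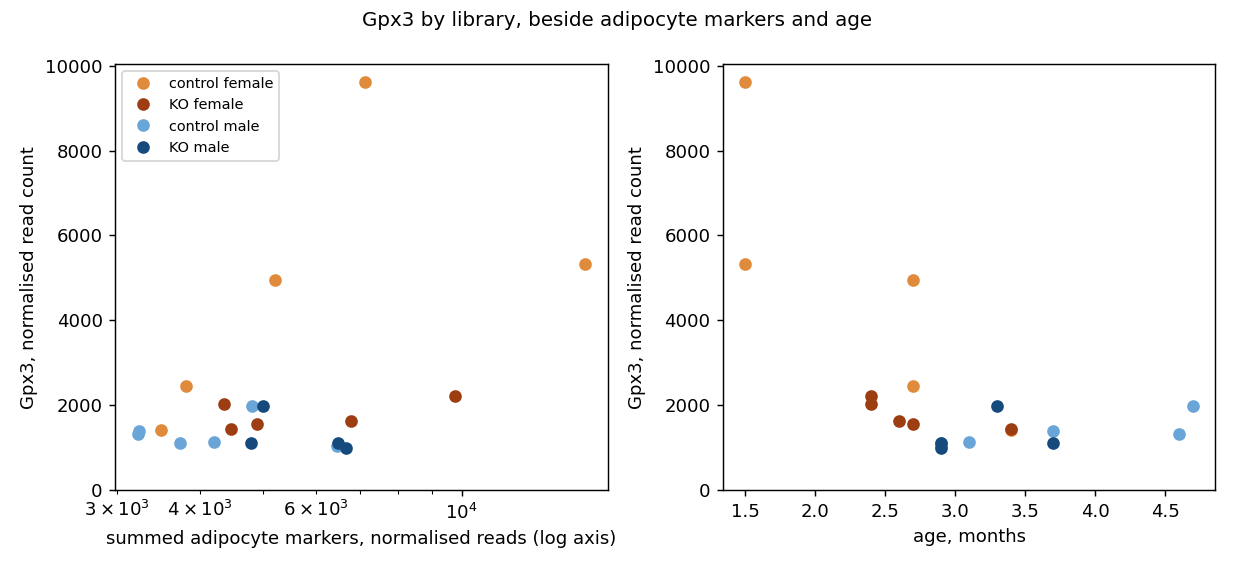
Gpx3 normalised read count (y) by library against the summed adipocyte markers (x, left, log axis) and against age in months (x, right). The 2 youngest control females, at 1.5 months, read 5325 and 9606, and every Bmal1 KO female lies between 1440 and 2219. Every control female but the oldest reads above all Bmal1 KO females.

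Other roles gave small genotype differences. Among the peroxiredoxins, Prdx1 read 17057, 17600, 16713, 16992 and 18779 in control females and 19717, 20099, 20259, 21356 and 17566 in Bmal1 KO females. Only Bmal1 KO female 5, at 17566, was within the control range, and the log2 difference was 0.18 ± 0.07 (adjusted p = 0.231). Prdx2, Prdx3, Prdx4, Prdx5 and Srxn1, the sulfiredoxin that repairs over-oxidised peroxiredoxins, had log2 differences between -0.17 and 0.16 in both sexes. The glutathione genes (Slc7a11, Gclc and Gclm for the rate-limiting ligase, Gss, the reductase Gsr and the glutaredoxin Glrx) lay between -0.22 and 0.09, with 6 of 6 negative in females and 4 of 6 in males. Gpx1, Gpx4 and Gpx7 lay between -0.14 and 0.11, and the thioredoxin genes Txn1, Txn2, Txnrd1 and Txnrd2 between -0.22 and 0.16. Sod1, Sod2, Sod3 and Cat lay between -0.23 and 0.04. The NADPH producers G6pdx and Pgd of the pentose phosphate pathway, Me1, Idh1 and Idh2 lay between -0.24 and 0.26. Among these NADPH producers the smallest adjusted p-values were those of Me1 in females (0.26 ± 0.13, adjusted p = 0.470) and Idh1 in males (-0.24 ± 0.11, adjusted p = 0.440).

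Few related genes outside the 36 passed in a single sex either. Of 10 other regulators of the NRF2 pathway, none passed in limma in either sex, with 0 at an unadjusted p under 0.05 in females and 1 in males. Of 21 tested thiol and peroxide enzymes, Sesn3, a sestrin, was lower in Bmal1 KO females (log2 difference -0.37 ± 0.07, adjusted p = 0.00415, groups apart). Of 19 genes of glutathione transport and use, Mgst2, a microsomal glutathione transferase, was lower in Bmal1 KO males (-1.15 ± 0.29, adjusted p = 0.0487, groups overlapping). Among 16 other NADPH producers none passed in limma, with 3 at an unadjusted p under 0.05 in females and 1 in males. Of 10 textbook targets of the glucocorticoid receptor, Cdkn1a, a cell cycle inhibitor, was higher in both sexes (1.04 ± 0.19, adjusted p = 0.00461 in females and 1.39 ± 0.20, adjusted p = 0.000406 in males). Nfkbia was higher in females, Sgk1 higher and Errfi1 lower in males. Of 10 genes of the metal response none passed in limma, with 1 and 2 at an unadjusted p under 0.05. For the mean of the female and male effects, 3 of 21 thiol and peroxide enzymes passed, all lower, against 3.81% of all genes tested. They were Sesn3 (-0.27 ± 0.05, adjusted p = 0.00184), Txndc5 (-0.28 ± 0.06, adjusted p = 0.00449) and Ccs (-0.35 ± 0.09, adjusted p = 0.0292). Of the glutathione genes Gstt1 passed, lower (-0.60 ± 0.13, adjusted p = 0.00733). Cdkn1a, Nfkbia and Sgk1 passed, higher. No gene passed among the other regulators, NADPH producers or metal response.

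More members passed the test between the sexes than between the genotypes. In controls 20 of 36 members differed between females and males, 16 higher and 4 lower in females, against 26.4% of all genes tested. In Bmal1 KO 19 of 36 differed, 16 higher and 3 lower in females, against 22.8% of all genes tested. Among genes at or above the lowest member's mean level the shares were 39% and 34.5%. The median log2 difference of the members was 0.23 in controls and 0.26 in Bmal1 KO, beside -0.05 and -0.07 over all genes tested. Over the genes at or above the lowest member's mean level the medians were 0.04 and 0.03. Of the calls, 16 were made in both genotypes in the same direction. Females and males stood fully apart in 10 of the 36 members in controls and in 15 of the 36 in Bmal1 KO; over all genes tested this held for 13.9% and 20.7%.

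Age differs between the sexes, since the youngest controls are females and the oldest males. With age as a covariate 9 members passed in controls, 6 higher and 3 lower, against 14.1% of all genes tested, and 16 in Bmal1 KO, against 20%. With only libraries aged 2.4 to 3.7 months 9 passed in controls, again 6 higher and 3 lower, against 13.7%, and 17 in Bmal1 KO, against 21.9%. Members that passed in controls both ways were Prdx6, Cat, Gsr, Sod2 and Prdx1, higher in females, and Hmox1, Me1 and Nqo1, lower. The control calls of Txnrd1, Pgd, Prdx3, Gpx4, Gss, Gclc, Txn1, Sod3, Nfe2l2 and Idh2 were lost both ways. That of Gpx3 was lost with the covariate and that of Gpx1 with the age limit. Markers of the X-zone, a transient inner layer of the mouse cortex that lasts longer in females, summed to between 36085 and 135810 normalised reads in control females and between 63.6 and 674 in control males. Their part in the sex differences was not tested.

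**Figure D5:**
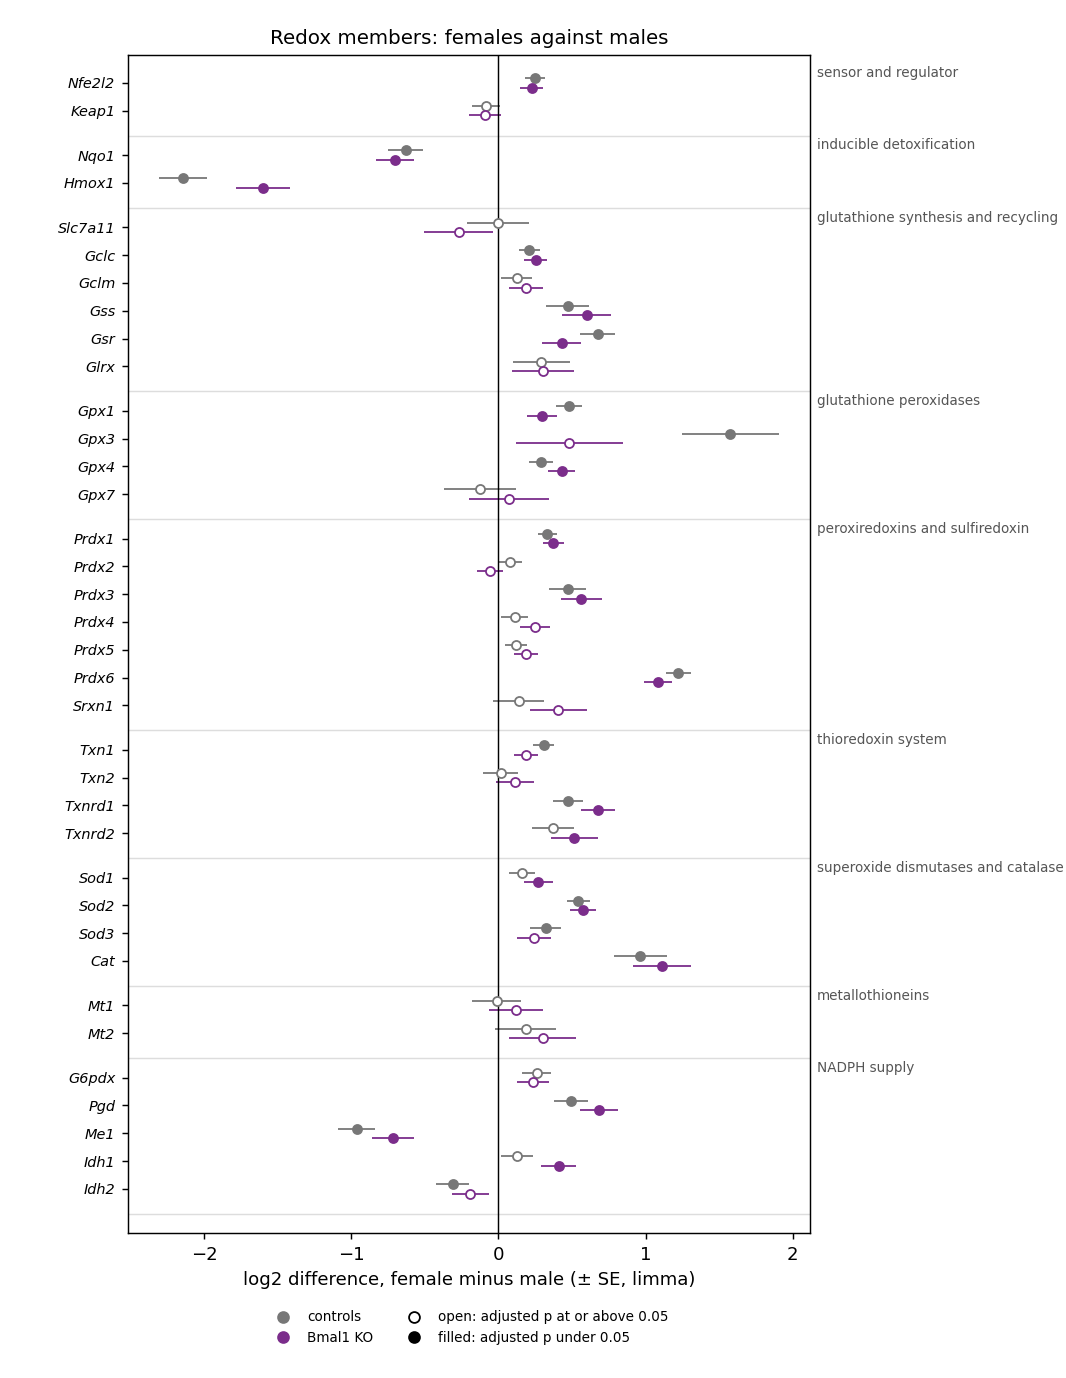
Log2 difference of females minus males (x, ± SE from limma) for each member (y, grouped by role), in controls and in Bmal1 KO; filled points have an adjusted p under 0.05. Hmox1 (-2.15 in controls), Me1 and Nqo1 lie on the male side, and Gpx3 (1.58 in controls), Prdx6 (1.22) and Cat lie farthest on the female side.

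Hmox1 had the widest gap: the control female values of 628 to 1310 all lay below the lowest control male, 2970. This gave a log2 difference of -2.15 ± 0.16 (adjusted p = 4.27e-09) in controls and -1.60 ± 0.18 (adjusted p = 1.33e-06) in Bmal1 KO. Nqo1 was also lower in females, by 0.63 ± 0.12 on the log2 scale in controls (-0.63, adjusted p = 0.000393) and by 0.70 ± 0.13 in Bmal1 KO (-0.70, adjusted p = 0.000435), with no overlap in either. Nfe2l2 went the other way. It was higher in control females by 0.25 ± 0.07 (adjusted p = 0.0118) and in Bmal1 KO females by 0.23 ± 0.08 (adjusted p = 0.0397). The Nfe2l2 call was lost with age as a covariate and with the age limit, in controls (adjusted p = 0.272 and 0.190) and in Bmal1 KO (0.0875 and 0.0523). In Bmal1 KO it was also lost without a filter (0.0521) and in 7 of 9 cases when 1 library was left out. Mt1 and Mt2 did not pass between the sexes in either genotype, with log2 differences between -0.01 and 0.30 and overlapping groups.

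Among the peroxidases Prdx6 was 2.34 times as high in control females as in control males. Its log2 difference was 1.22 ± 0.09 (adjusted p = 1.34e-09) in controls and 1.09 ± 0.10 (adjusted p = 4.5e-08) in Bmal1 KO, without overlap. Cat, which encodes catalase, read 5057, 5382, 8552, 7283 and 7763 in control females and from 2517 through 3333 to 5008 in control males, again without overlap. Its log2 difference was 0.97 ± 0.18 (adjusted p = 0.000353) in controls and 1.11 ± 0.20 (adjusted p = 0.000294) in Bmal1 KO. Gpx3 differed by 1.58 ± 0.33 in controls (adjusted p = 0.00119) and by 0.48 ± 0.37 in Bmal1 KO (adjusted p = 0.379), the spread within control females being that described above. Sod2, the mitochondrial superoxide dismutase, read 2850, 3577, 3448, 3483 and 4066 in control females, all above the highest control male at 2724. Its log2 difference was 0.54 ± 0.08 (adjusted p = 2.7e-05) in controls and 0.58 ± 0.09 (adjusted p = 5.71e-05) in Bmal1 KO. Prdx1 differed by 0.33 ± 0.06 in controls and 0.37 ± 0.07 in Bmal1 KO, without overlap. Prdx3, Gpx1 and Gpx4 were also higher in females in both genotypes, by 0.29 to 0.56 on the log2 scale.

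The reductases that regenerate glutathione and thioredoxin also lay on the female side. Gsr, which regenerates glutathione, read 927, 1124, 927, 1175 and 1233 in control females and from 558 through 650 to 833 in control males. Its log2 difference was 0.67 ± 0.12 (adjusted p = 0.000243) in controls and 0.43 ± 0.13 (adjusted p = 0.0224) in Bmal1 KO. Txnrd1, the cytosolic thioredoxin reductase, was higher in females by 0.47 ± 0.10 (adjusted p = 0.00183) in controls and by 0.68 ± 0.12 (adjusted p = 0.000194) in Bmal1 KO. The Txnrd1 call in controls was lost with both treatments of age (adjusted p up to 0.0800). Gss and Gclc were higher in females in both genotypes too, by 0.21 to 0.60, whereas the thioredoxin Txn1 and the extracellular dismutase Sod3 passed in controls alone, and Txnrd2, Sod1 and Idh1 in Bmal1 KO alone. Whether these last 5 sex differences themselves differ between the genotypes was covered by the test of the difference of effects above, which none passed. Several of these calls were narrow. In controls Gclc was lost without control female 1, 2 or 5 or control male 2, 4 or 5, Gss without control female 2 or 5 or control male 4 or 5, and Sod3 without control female 3, 4 or 5 or control male 1 or 3. In Bmal1 KO, Sod1 was lost in 7 of 9 cases when 1 library was left out, Gclc, Gsr and Txnrd2 in 3 each and Gpx1 in 4.

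The sources of NADPH split. Me1 read 26912, 28444, 24494, 23564 and 35017 in control females and from 46304 through 53533 to 65311 in control males, so every male exceeded every female. On the log2 scale the difference was -0.96 ± 0.13 (adjusted p = 8.25e-06) in controls and -0.72 ± 0.14 (adjusted p = 0.000785) in Bmal1 KO. Pgd, the second NADPH-making dehydrogenase of the pentose phosphate pathway, was higher in females by 0.50 ± 0.11 (adjusted p = 0.00281) in controls and by 0.68 ± 0.13 (adjusted p = 0.000472) in Bmal1 KO. The Pgd call in controls was lost with both treatments of age (adjusted p up to 0.0768). G6pdx, the first dehydrogenase, differed by 0.26 ± 0.10 (adjusted p = 0.0569) in controls and by 0.24 ± 0.11 (adjusted p = 0.129) in Bmal1 KO. Idh2, the mitochondrial isocitrate dehydrogenase, was lower in control females (-0.31 ± 0.11, adjusted p = 0.0479), a call that held only without control female 4 or control male 6. Of 16 other NADPH producers 11 were higher and 1 lower in control females, against 26.4% of all genes tested. Their median log2 difference was 0.38. Those higher include Nadk, the cytosolic NAD kinase (0.98 ± 0.11, adjusted p = 9.65e-07), and Mthfd1 of the folate cycle (0.53 ± 0.07, adjusted p = 7.42e-06). Mitochondrial Mthfd2 was the 1 lower (-0.85 ± 0.25, adjusted p = 0.0142). In Bmal1 KO 8 of the 16 were higher in females and 0 lower, against 22.8% of all genes tested. The 2 treatments of age were examined for the members alone and not for this list.

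Related genes also differed by sex, in both directions, again without an examination of age. Of 19 genes of glutathione transport and use, 6 were higher and 7 lower in control females, against 26.4% of all genes tested. The microsomal enzyme Mgst1 was higher (2.14 ± 0.13, adjusted p = 3.01e-10), as was the peroxisomal and mitochondrial Gstk1 (1.20 ± 0.11, adjusted p = 9.89e-08). The cytosolic Gstm1 (-0.79 ± 0.11, adjusted p = 1.19e-05) and Gsta4 (-0.57 ± 0.09, adjusted p = 9.05e-05) were lower. Of 21 thiol and peroxide enzymes 9 were higher and 1 lower, led by Aifm2, the lipid radical suppressor FSP1 (1.55 ± 0.15, adjusted p = 1.66e-07), and Glrx5, a mitochondrial glutaredoxin (0.96 ± 0.13, adjusted p = 1.38e-05). Of 10 other regulators of the NRF2 pathway 3 were higher and 3 lower, among them Bach1, the repressor of Hmox1 (0.65 ± 0.13, adjusted p = 0.00107, higher in females), and Maff, a small MAF partner (-1.22 ± 0.26, adjusted p = 0.00163). Of 10 glucocorticoid receptor targets 4 were lower in control females, Per1, Fkbp5, Zbtb16 and Errfi1, with log2 differences from -2.27 to -1.47, and Cdkn1a was higher (1.09 ± 0.19, adjusted p = 0.000148).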

How the data were processed

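RNA-seq libraries from 20 whole mouse adrenals were analysed from 1 deposited table. The deposited values are a normalised signal per gene and library. Within each library 100% of positive values were whole multiples of 1 step. The tolerance was 0.001 of a read, and wider in proportion to the count for high counts. Each step times the DESeq2 size factor of the recovered reads was 1, so the authors' signal is a read count divided by 1 size factor per library. Per the submitters' processing notes the build was mm10 (GRCm38), and the tools named are featureCounts, DESeq2, Salmon, MultiQC and FastQC. Their versions and roles, the aligner, the annotation and the strandedness could not be learnt from them. Of 47729 genes, 13350 were at 0 in every library.

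Limma-trend (limma 3.58.1, R 4.3.3) was run on log2(value + 1). It covered the 26612 genes that reached 1 normalised read in 4 or more libraries, and fitted a mean for each of 4 groups with 1 shared spread over 20 libraries. Log2 differences are on that scale, which understates changes of low genes. Every adjusted p is from limma with Benjamini-Hochberg adjustment over all genes tested unless another tool is named, with a threshold of 0.05. Alternatives were edgeR 4.0.16 and DESeq2 1.42.0 on recovered reads, limma-voom, other pseudocounts, no filter, TMM scaling, 2 groups only, age as a covariate, ages 2.4 to 3.7 months, the replicate number as a block, and each library left out. Depth, 13421985 to 26742820 reads, is high for members; a floor of 3 reads covers counting error only. Coordinates, exon lengths and overlaps are from GENCODE M21 (GRCm38), promoters from RefSeq (GRCm38.p6).

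The 36 members, the other gene lists and the tests were chosen with earlier results of these data known. Given in full were the 2 regulators, members called by genotype, the 6 members with the smallest p per genotype contrast and the 8 called members with the largest sex difference in controls. Of the other lists, at most 4 called genes per list and contrast were named. The exception is the glucocorticoid receptor targets by sex in controls, where all 5 called genes were named. Exons of 9 members overlap those of another gene (Keap1, Gclm, Gss, Prdx2, Prdx5, Txnrd2, Mt2, G6pdx and Me1).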

Additional observations from a re-analysis of the deposited data

Results flagged for a closer look

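Among 144 sets of values (36 members in 4 groups), 16 had 1 library far from the rest of its group by Dixon's test, where chance gives about 1 in 20 sets. Control male 6 accounted for 7 of them, each time as the highest control male. It read 2069.7 for Gss, where the other control males ended at 1236.0, and 9686.0 for Gpx4, where they ended at 8152.9. Its Prdx1 level was 16191.2 beside at most 13659.3, and its Prdx3 level 21133.6 beside at most 14476.4. It read 5808.3 for Srxn1 beside at most 3233.2, 4086.5 for Txn1 beside at most 3385.6 and 13332.9 for Txn2 beside at most 9222.6. The share of mitochondrial reads was highest in this library, at 12.4%. Without it 21 members differed between the sexes in controls, in place of 20, and 1 in place of 2 between the genotypes in males.

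Bmal1 KO female 4 stood highest in its group for Prdx2 at 11703.7 and Srxn1 at 5281.7. Bmal1 KO male 1 stood highest for Gss at 1457.0, with the others between 948.6 and 967.1, and for G6pdx at 6342.8. Bmal1 KO male 2 read 1988.1 for Gpx3, with the others between 1000.3 and 1119.2, and Bmal1 KO male 4 read 68.0 for Slc7a11. Among control females, replicate 5 read 1111.4 for Mt2 and replicate 4 read 3960.6 for Idh2. Control male 2 read 15660.5 for Sod1.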

How the results depend on the processing

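Members called in a contrast, and the 6 with the smallest p in each genotype contrast, kept their direction there under the alternatives run. Hmox1 in females, followed because of its male call, did not: its log2 difference between genotypes was 0.089 among ages 2.4 to 3.7 months and ran from -0.26 to 0.0096 when 1 library was left out, being above 0 only without control female 5. Over all 36 members, called or not, 29 in females and 34 in males kept the sign of the genotype difference among ages 2.4 to 3.7 months, 32 did for the mean effect and for the difference of effects, and 33 did for sex in controls with age as a covariate. The number of called members in females, 1, became 2 with edgeR, 3 with DESeq2 and 2 with the 2 groups alone, and in males, 2, became 5 with DESeq2, 1 with a pseudocount of 0.1, with age as a covariate and among ages 2.4 to 3.7 months, and 0 without a filter and with the 2 groups alone. The mean effect passed 8 members with DESeq2 and 2 among ages 2.4 to 3.7 months. The cause of these shifts was not tested, except that the age limit leaves 3 control females and 4 control males. The sex difference in controls passed 9 members with either treatment of age, and over all genes 3746 with the covariate and 3652 with the age limit.

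Over all genes DESeq2 called 913 in females, 726 in males, 83 for the difference of effects and 1656 for the mean effect, and the age limit 222, 186, 0 and 537. The 2 groups alone gave 195 in males; limma-voom and the age covariate each gave 0 for the difference of effects. With 1 library left out, called members ran from 1 to 2 in females, 0 to 2 in males, 4 to 7 for the mean effect, 17 to 21 for sex in controls and 13 to 20 for sex in Bmal1 KO, and all genes from 217 to 477 in males and 0 to 16 for the difference of effects. In males the member count stayed at 2 only when control male 5 was the library left out.

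Replicate numbers recur across groups. Correlations of same-numbered deviations were 0.0109 to 0.142 between the female groups and -0.0609 to -0.0026 between the male groups, so the numbers were not taken as pairs. With the replicate number as a block, called members were 1 in females, 0 in males, 0 for the difference of effects, 4 for the mean effect, 19 for sex in controls and 16 in Bmal1 KO, and 5 genes of all passed the difference of effects. In females 3 of 5 numbers correlated best with their own. Counting error is small at these depths; only Slc7a11 and Nqo1 lie near or under 100 normalised reads in a group.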
